A study of Drosophila melanogaster with 2 samples.

Results

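The report concerns 8 long genes of Drosophila melanogaster, sbb, jing, bun, CHES-1-like, Tlk, kirre, rdx and CG1677, out of 13968 protein-coding genes on the 7 major chromosome arms. They were chosen by the number of conservative ChIP-seq summits inside the annotated gene, so these counts are a description and were not tested. The data were 2 biological replicates of 1 group: whole embryos collected 0 to 24 h after egg laying from transgenic flies that make CG4360, a zinc finger protein, fused to eGFP, with chromatin sonicated to 200 to 800 bp and precipitated through the GFP tag. No group without the tagged protein was analysed here, and the number of reads behind the lists is unknown. Peaks were kept at an irreproducible discovery rate (IDR) of at most 0.01, a rate that is low for calls ranked alike in the sets of calls compared. Each replicate had such a list, and 2 further lists used both replicates. A control was used in the calling and was not analysed here. The conservative list, so named by the authors, is the main list here, and the other is called the pooled list. The lists kept 4519 peaks in replicate 1 and 3678 in replicate 2 on the major arms. They kept 5692 in the conservative list and 6193 in the pooled list.

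A zinc finger transcription factor binds DNA through zinc-held folds, each of which reads a few bases with its alpha helix, and it can sit at promoters or at enhancers within introns. Long developmental genes in the fly often carry many enhancers in their introns, alternative promoters for different isoforms and small genes nested inside them. A peak in such a gene therefore need not belong to the gene that surrounds it. The short repeat built from CAA units is written here as the word CAACAAC or its reverse complement GTTGTTG. It was picked for description with earlier results of these data known, so its frequency under the peaks is not independent evidence. It played no part in the choice of genes.

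The strongest intronic site that held the word is shown first for 6 of the 8 genes, all but sbb and jing. In CG1677, Tlk, bun, CHES-1-like and kirre this was also the strongest site of the gene, and in rdx it was the third. Each line gives 101 bases of the plus strand of the dm6 assembly around the summit, read from the RefSeq release 6 sequence, with runs of the word, found on either strand, in capitals. The order is by signal among these 6.
CG1677 (chrX:7307729-7307829): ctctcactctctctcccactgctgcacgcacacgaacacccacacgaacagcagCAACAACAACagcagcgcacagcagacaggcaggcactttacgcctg
Tlk (chrX:3743380-3743480): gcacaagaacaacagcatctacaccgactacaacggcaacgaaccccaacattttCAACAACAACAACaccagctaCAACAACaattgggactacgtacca
bun (chr2L:12529578-12529678): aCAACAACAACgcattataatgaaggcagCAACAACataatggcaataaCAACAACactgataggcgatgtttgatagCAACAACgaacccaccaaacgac
CHES-1-like (chrX:7702570-7702670): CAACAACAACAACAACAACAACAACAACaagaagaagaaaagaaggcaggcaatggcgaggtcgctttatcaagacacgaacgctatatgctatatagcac
kirre (chrX:2882666-2882766): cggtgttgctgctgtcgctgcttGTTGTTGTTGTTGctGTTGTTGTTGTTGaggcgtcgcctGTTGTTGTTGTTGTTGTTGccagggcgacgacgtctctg
rdx (chr3R:13985507-13985607): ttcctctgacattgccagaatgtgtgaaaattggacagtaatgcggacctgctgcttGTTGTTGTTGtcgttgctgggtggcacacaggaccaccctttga

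The windows differed in how the repeat was arranged. In bun 4 separate short runs stood within the window, in kirre 3 runs followed each other in the GTTGTTG orientation, and in CHES-1-like 1 run filled the left edge and continued beyond it to a total of 49 bp. In Tlk a run of 13 bp and a run of 7 bp stood apart. In CG1677 a single run of 10 bp lay among CAG units. In rdx the run had the same length, in the other orientation.

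Some strong intronic sites had no such word, and the strongest of Tlk, rdx and kirre are shown for contrast. Capitals here mark CAACAAA, a variant of the word.
Tlk (chrX:3742161-3742261): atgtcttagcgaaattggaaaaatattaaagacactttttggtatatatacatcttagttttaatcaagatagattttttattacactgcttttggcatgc
rdx (chr3R:14013947-14014047): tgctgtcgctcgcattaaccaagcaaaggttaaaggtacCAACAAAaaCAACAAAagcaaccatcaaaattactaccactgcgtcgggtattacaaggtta
kirre (chrX:3097161-3097261): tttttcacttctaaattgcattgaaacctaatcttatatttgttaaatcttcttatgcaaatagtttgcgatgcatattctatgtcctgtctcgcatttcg

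The window in rdx held CAACAAA at 2 places. The windows in Tlk and kirre held neither the word nor any of the 4 variants searched, and their GC content was 26.7% and 30.7%, against 40.6% in rdx.

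In all, the 8 genes held 143 conservative summits, which formed 139 distinct sites once summits within 200 bp of each other were joined. They made up 2.48% of the 5612 conservative sites on the major arms, on 0.706% of their length, a difference that follows from the choice of genes. At least 15 summits, the count of CG1677, were present in 17 protein-coding genes, which is 0.122% of those tested. The 9 other genes at or above that count were mam with 21, hth and ush with 17, Raf with 16 and InR, cic, psq, simj and tou with 15. Just outside stood pnt, shn and tna with 14 summits. The 8 genes are therefore a selection from the top of the ranking, not the whole of it.

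Per length the genes were far apart. CHES-1-like held 5.55 sites per 10 kb, and ranked 3 among 1020 protein-coding genes of at least 20 kb. The value was 3.03 in sbb, 2.62 in rdx, 2.44 in Tlk, 1.87 in bun, 1.42 in jing and 1.20 in CG1677. In kirre, the longest of them at 394.1 kb, it was 0.431, at rank 370. Over the 1020 genes the median was 0.235, and 426 of them had no site. The densities share their count with the choice of genes. Values above that median therefore follow in part from the choice, and nothing is read from the ranks. The count of sites thus stood beside very different densities.

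**Figure D1:**
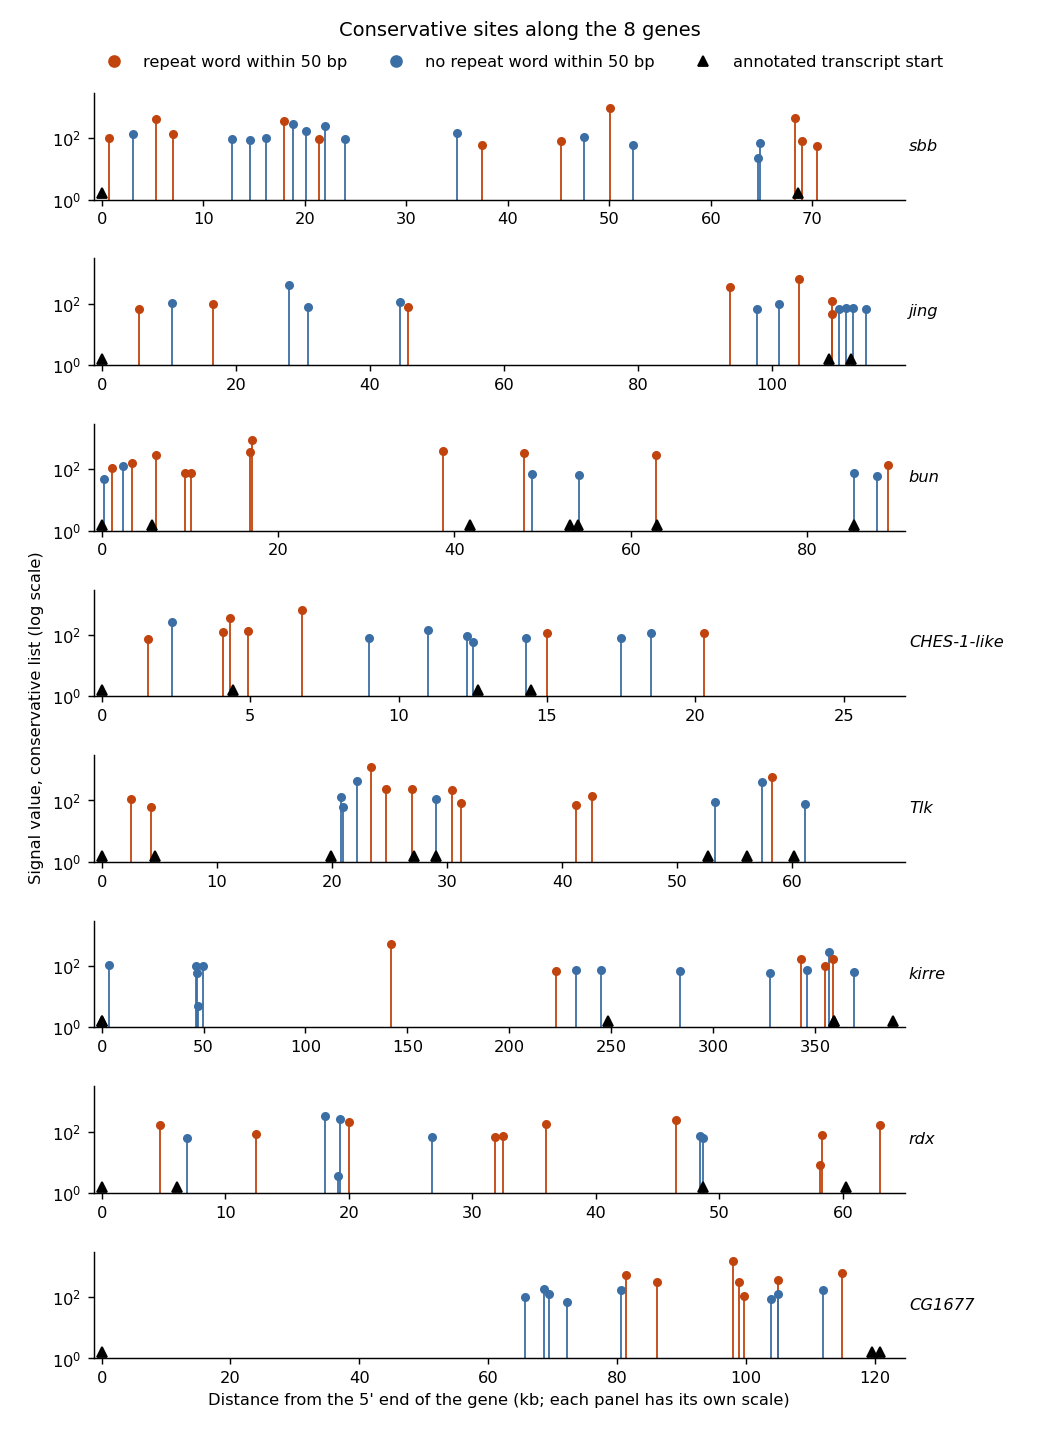
Conservative sites along each of the 8 genes. The horizontal axis is the distance from the annotated 5′ end in kb with its own scale per gene, the vertical axis is the authors' signal value on a log scale, colour marks the repeat word within 50 bp of the summit and triangles are annotated transcript starts. From the first to the last, the sites span 39.3% of CG1677, where all 15 lie from 65.8 kb onwards. They span 69.4% of CHES-1-like and more of each other gene.

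The genes of transcription regulators come first. The gene sbb (FBgn0285917, 2R, 18278198 to 18357296, minus strand), also known as brakeless or scribbler, encodes a nuclear zinc finger protein that acts as a corepressor. It held 24 distinct sites, the most of the 8 genes, and 20 of them were intronic. Its strongest site (summit 18307168) had a conservative signal of 949.7, a value of the authors whose scale is not given, and the matching ranked calls had 531.5 in replicate 1 and 421.0 in replicate 2. The second (18288952, 443.4) lay 191 bp from an isoform start of sbb and also inside another annotated gene, CG14502. It had 262.5 in replicate 1 and 177.1 in replicate 2. The third (18351911, 413.5) lay in an intron, with 236.7 in replicate 1 and 169.1 in replicate 2. All 3 held CAACAAC and were inside thresholded peaks of both replicates. A group of 9 sites lay from 12.8 to 24.0 kb from the 5′ end, of which 2 had the word. Of the 24 sites, 11 had the word and 12 were in thresholded peaks of both replicates.

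The gene jing (FBgn0086655, 2R, 6502006 to 6621792, plus strand) encodes a zinc finger protein required in border cell migration and in the tracheae and nervous system. It held 17 sites in 2 blocks separated by a gap of 48.2 kb. The block at the 3′ side held 10 sites. The strongest site (6606000, 647.5) was intronic, with 357.2 in replicate 1 and 288.4 in replicate 2. The next (6529945, 412.2) had no CAACAAC, with 233.7 in replicate 1 and 178.7 in replicate 2. The third (6595846, 341.4) had the word, with 195.0 in replicate 1 and 149.7 in replicate 2. After these 3 the signal dropped to 122.1 and below. Only 5 of the 17 sites were in thresholded peaks of both replicates, and 7 had the word. The gene's length rests on 1 transcript: its other 3 transcripts spanned 11.31 kb, which held 6 sites.

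CHES-1-like (FBgn0029504, X, 7682338 to 7709385, minus strand) encodes a forkhead transcription factor. It is the shortest of the 8 at 27.05 kb, and no gap between its 15 sites was over 2496 bp. Its strongest site (7702620, 647.8) was intronic, with 373.3 in replicate 1 and 264.1 in replicate 2. The second (7705053, 353.7) lay 90 bp from an isoform start, with 227.3 in replicate 1 and 124.9 in replicate 2. The third (7707010, 266.3) had no CAACAAC, with 143.9 in replicate 1 and 116.4 in replicate 2. Sites lay within 500 bp of 3 of its 4 groups of starts, where starts within 200 bp count as 1 group, and 6 of the 15 sites were there. One site in coding sequence (7689049, 116.6) fell on the longest CAACAAC run of the 8 genes, at 64 bp.

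The gene bun (FBgn0259176, 2L, 12455540 to 12546611, minus strand) encodes TSC22 domain proteins that promote growth and act in patterning of the egg. It held 17 sites, 11 of them with CAACAAC and 9 in thresholded peaks of both replicates. The strongest site (12529628, 907.7) was intronic, with 539.0 in replicate 1 and 374.3 in replicate 2. A neighbour 204 bp away (365.9) matched the same call in each replicate, so these 2 cannot be told apart as separate sites. The next site (12507876, 382.8) had 220.1 in replicate 1 and 150.5 in replicate 2. It lay in an intron of bun, 63 bp from a start of CG43051 and 3044 bp from the nearest bun start. With 7 groups of starts, bun had sites at 4 of them, and 5 further sites lay in exons, 3 of them in coding sequence.

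Tlk (FBgn0283657, X, 3720007 to 3789770, plus strand) encodes the Tousled-like kinase, which acts in chromatin assembly and the cell cycle. It held 17 sites, and 9 of them lay from 20.8 to 31.2 kb from the 5′ end. This stretch contained the strongest site (3743430, 1227), with 729.8 in replicate 1 and 510.1 in replicate 2. The second site (3778249, 560.7) was also intronic, with 307.0 in replicate 1 and 251.2 in replicate 2. The third (3742211, 442.1) had neither the word nor a variant, with 159.0 in replicate 1 and 289.7 in replicate 2. It was thus higher in replicate 2, while the strongest was higher in replicate 1. In Tlk 11 of 17 sites were in thresholded peaks of both replicates, and 10 had CAACAAC.

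The gene rdx (FBgn0264493, 3R, 13967061 to 14032057, minus strand), known as roadkill, encodes a BTB protein that targets Cubitus interruptus, the transcription factor of Hedgehog signalling, for ubiquitination. Its 17 sites were weaker at the top than those of the others, with a highest signal of 321.8 (14013997, 214.5 in replicate 1 and 105.9 in replicate 2). That site was the only strongest site of a gene without CAACAAC. The second (14012746, 262.7) also lacked the word, with 131.9 in replicate 1 and 145.4 in replicate 2. The third (13985557, 239.6) had it, with 149.1 in replicate 1 and 103.3 in replicate 2. In all 10 of 17 sites had the word and 9 were in thresholded peaks of both replicates. The lowest signal of the 8 genes, 3.653, was that of a summit beside the second site, and no ranked call of either replicate had a summit within 200 bp of it.

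The gene kirre (FBgn0028369, X, 2740384 to 3134532, plus strand) encodes an immunoglobulin superfamily adhesion protein that muscle founder cells use in myoblast fusion. Its 17 sites were spread with a median spacing of 9818 bp and gaps of up to 92847 bp. The strongest (2882716, 514.3) lay in an intron and inside the nested gene CG14418, with 239.9 in replicate 1 and 264.5 in replicate 2. The second (3097211, 295.7) had 111.9 in replicate 1 and 178.6 in replicate 2. The third (3083751, 175.3) had 112.9 in replicate 1 and 56.95 in replicate 2. A group of 6 sites lay from 343 to 369 kb from the 5′ end, around an isoform start with a site 7 bp away (3099589, 168.3). The genome annotation places 21 protein-coding genes inside kirre, and 7 of its sites lay inside another gene, among them rst, which encodes a related adhesion protein, and CG32795. Only 4 of the 17 sites were in thresholded peaks of both replicates, and 5 had CAACAAC.

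CG1677 (FBgn0029941, X, 7281089 to 7405797, minus strand) owed its place to 1 annotated transcript. The other 3 transcripts of the gene spanned 5.107 kb and held 0 of its 15 sites. All 15 were intronic in the long transcript and none was within 500 bp of a CG1677 start. All 15 also lay inside the annotated long noncoding RNA gene lncRNA:CR44357. The nearest transcript start belonged to brk for 6 of them, to CBP for 3, to Dok and unc-119 for 2 each and to Atg5 and CG42780 for 1 each. The gene brk encodes Brinker, a repressor of targets of the BMP-type ligand Decapentaplegic.

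The strongest site within CG1677, also the strongest of all 139, lay 160 bp from the start of brk (7307779, 1492), with 857.9 in replicate 1 and 637.6 in replicate 2. The next lay 374 bp from a start of unc-119 (7290924, 596.0), with 343.8 in replicate 1 and 251.2 in replicate 2. The third lay 224 bp from a start of Dok (7324438, 532.7), with 294.7 in replicate 1 and 238.2 in replicate 2. All 3 had CAACAAC, and 12 of the 15 sites were in thresholded peaks of both replicates. These sites are thus recorded in CG1677 by position, while the closest starts are those of other genes.

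**Figure D2:**
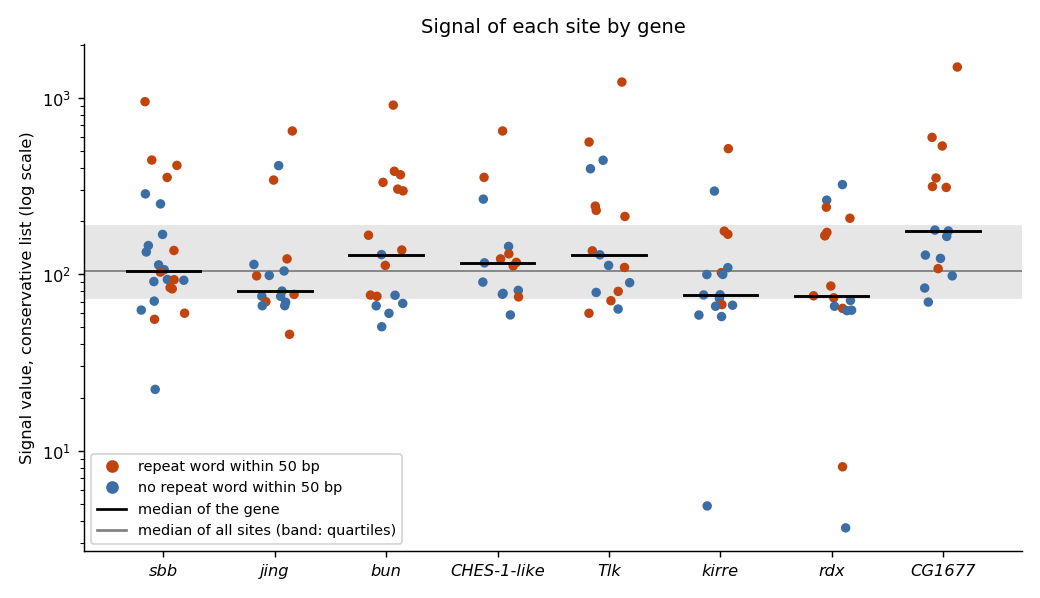
Signal of every conservative site by gene. Each point is 1 site, the vertical axis is the authors' signal value on a log scale, black bars are gene medians, and the grey line and band are the median and quartiles of all 5612 sites. The medians run from 75.45 in rdx to 175.7 in CG1677 around the median of all sites, 104.6.

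Over the 8 genes the signal was close to that of all sites. The median was 107.5 with quartiles of 74.60 and 221.2, against 104.6 with quartiles of 73.13 and 188.2 over all sites. Above the median of all sites lay 71 of the 139, which is 51.1%. Above the 90th percentile of all sites, a signal of 371.0, lay 16 of the 139. By gene, the median was 175.7 in CG1677, 129.1 in bun, 128.8 in Tlk and 115.9 in CHES-1-like. It was 104.4 in sbb, 80.20 in jing, 76.45 in kirre and 75.45 in rdx. Every gene had sites on both sides of the median of all sites. The range within each gene was wider than the range of the gene medians.

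CAACAAC was present within 50 bp of the summit at 68 of the 139 sites, which is 48.9% (exact binomial 95% interval 40.4 to 57.5). Over all conservative sites the share was 45.5%, and over sites in other protein-coding genes of at least 20 kb it was 51.8%. Windows centred 500 bp to either side held the word at 6.83% (19 of 278) in the 8 genes and at 4.84% over all sites. The share of the 8 genes was thus near that of all sites, while both were above their own flanks. The word was picked with earlier results of these data known, so the difference from the flanks is description only. The sites share genes and, in places, repeats, so the interval covers counting error only.

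By gene the word was present at 11 of 17 sites in bun, 10 of 17 in Tlk and 10 of 17 in rdx. It was present at 7 of 15 in CHES-1-like and in CG1677, 11 of 24 in sbb, 7 of 17 in jing and 5 of 17 in kirre. Among the 71 sites without it, 16 had a variant (22.5%), against 19.4% of all sites without it. The variants searched on both strands were CAACAAA with the words CAGCAAC and CAACAGC, and also CAGCAGC. They can overlap the word and each other. The other 55 sites had neither the word nor a variant within 50 bp.

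Sites with the word had the higher median signal. The median was 151.0 for the 68 sites with CAACAAC and 89.50 for the 71 without it, against 155.8 and 83.70 over all sites. Of the 16 sites above the 90th percentile, 13 had the word, and of the 33 below the 25th percentile of all sites, 9 had it. Within 50 bp of the summit the longest run was 7 to 9 bp at 33 sites, with a median signal of 93.08, and 10 to 12 bp at 15 sites, with 239.6. It was at least 13 bp at 20 sites, with a median of 273.2. The 3 groups overlapped, as the short-run sites reached 647.5 and the long-run sites went down to 79.90. No test was made, since sites of 1 gene are not replicates.

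The orientation of the repeat against the gene was mixed. CAACAAC read along the coding strand of the gene at 25 sites, along the opposite strand at 40 and along both at 3. Over all 549 runs of the word in the 8 genes, 283 were on the coding strand and 266 on the other. In CG1677 all 7 sites with the word had it on the opposite strand. Its 57 runs divided into 28 on the coding strand and 29 on the other. In bun 8 sites were on the opposite strand and 3 on the coding strand, while its runs divided into 37 and 30. In sbb 2 sites were on the opposite strand and 8 on the coding strand, with 1 on both. The runs of sbb leaned the same way, with 24 on the opposite strand and 46 on the coding strand. These counts were not tested.

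Of the 549 runs, 90 had a conservative summit within 50 bp, which is 16.4%, against 8.03% of the 47164 runs on the major arms. The genes were chosen for many summits, so a higher share follows in part from the choice and nothing is read from it. The share went with the length of the run in both sets. For runs of 7 to 9 bp it was 10.8% in the 8 genes and 4.92% over all arms, and for runs of 10 to 12 bp it was 27.4% and 21.2%. For runs of at least 13 bp it was 58.1% (25 of 43, interval 42.1 to 73.0) and 35.8%. Runs were most frequent per length in CHES-1-like, at 12.2 per 10 kb, and least frequent in kirre, at 3.86, against 3.43 over the major arms. By gene the share over all lengths went from 5.26% in kirre (8 of 152 runs) to 35.6% in rdx (16 of 45).

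**Figure D3:**
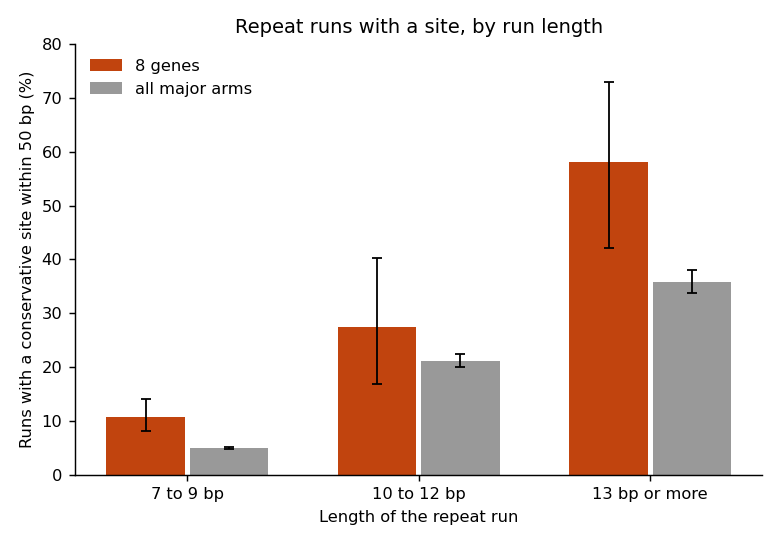
Share of CAA repeat runs that had a conservative site, by run length. The horizontal axis groups runs of the word or its reverse complement by length in bp, the vertical axis is the percent with a summit within 50 bp, bars are the 8 genes and all major arms, and error bars are exact binomial 95% intervals. In the 8 genes the share was 10.8% for the shortest runs and 58.1% for the longest.

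Most sites lay in introns. Of the 139, 108 (77.7%) were intronic and 19 (13.7%, interval 8.43 to 20.5) were within 500 bp of an annotated start of the gene itself. The other 12 lay in exons away from starts, with 7 in coding sequence, 3 in 5′ UTRs and 2 in 3′ UTRs. Introns also made up most of the length of each gene, from 69.2% of CHES-1-like to 98.0% of kirre. The median of 2.15 sites per 10 kb over whole genes was 1.92 with introns only, so introns did not hold more sites for their length. No intronic share over all sites is given. Over all conservative sites inside protein-coding genes, 36.5% were within 500 bp of a start of a gene that contains them, and over other genes of at least 20 kb the share was 22.1%. These comparison shares count the starts of any gene around the site, nested ones included, while the 13.7% counts only the starts of the 8 genes. Starts of other genes, nested or adjoining, had a further 15 of the 139 sites. Counted alike, with the starts of any gene, the share was 24.5% (34 of 139, interval 17.6 to 32.5) in the 8 genes. It was 25.2% in other genes of at least 20 kb and 41.3% over all sites. The 8 genes had 36 groups of starts, and 15 of these had a site within 500 bp. The genes were chosen for many summits and no such share over other genes is given, so nothing is read from this count. The word was present at 9 of the 19 start sites, at 48 of the 108 intronic sites and at 11 of the 12 exonic sites (91.7%, interval 61.5 to 99.8). These shares were not tested against each other. No share over all exonic sites is given, so nothing is read from the exonic one. Within 500 bp of a start of any gene, the word was at 17 of 34 sites of the 8 genes (interval 32.4 to 67.6). Over all sites the share there was 37.4%. Away from starts of any gene it was 48.6% (51 of 105) in the 8 genes and 51.3% over all sites. Signal had a median of 90.18 at the 19 start sites and 108.2 at the 108 intronic ones.

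Neighbouring sites in a gene had a median spacing of 2247 bp with quartiles of 1041 and 5596, against 2720 bp with quartiles of 1023 and 8387 in other genes of at least 20 kb. A smaller spacing follows in part from choosing genes with many summits, so nothing is read from this difference. The smallest possible spacing was just over 200 bp, where summits were joined. Gaps of at most 1 kb made up 31 of 131 (23.7%), against 24.4% in the other genes. By gene the median went from 1502 bp in CHES-1-like to 9818 bp in kirre. In 4 pairs, 1 each in sbb, bun, kirre and rdx, the neighbours stood 201 to 206 bp apart and matched the same ranked call in both replicates. The weaker member of these pairs had a signal of 22.25 in sbb, 365.9 in bun, 4.863 in kirre and 8.105 in rdx. Such pairs are not shown to be separate sites.

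The replicates differed in how many of these sites they called on their own. Replicate 1 alone gave 104 distinct sites in the 8 genes and replicate 2 alone gave 88, against 143 in the pooled list. Before joining, the 8 genes held 107 of the 4519 thresholded peaks of replicate 1 (2.37%). They held 88 of the 3678 of replicate 2 (2.39%). These shares were near each other, so the lower total of replicate 2 went with its shorter list and is not particular to these genes. In CG1677 replicate 1 had 15 and replicate 2 had 14, close to the 15 of the conservative list. In kirre replicate 1 had 10 and replicate 2 had 5, against 17. In rdx the replicates had 8 and 9, and in jing 9 and 12, against 17 in each gene. In sbb they had 20 and 16 against 24, and in Tlk 16 and 11 against 17. In bun they had 13 and 11 against 17, and in CHES-1-like 13 and 10 against 15. In the ranked lists, before the threshold, the 8 genes held 1283 of 126636 conservative calls and 1287 of 127683 pooled calls. They held 977 of the 89889 ranked calls of replicate 1 and 914 of the 87752 of replicate 2.

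**Figure D4:**
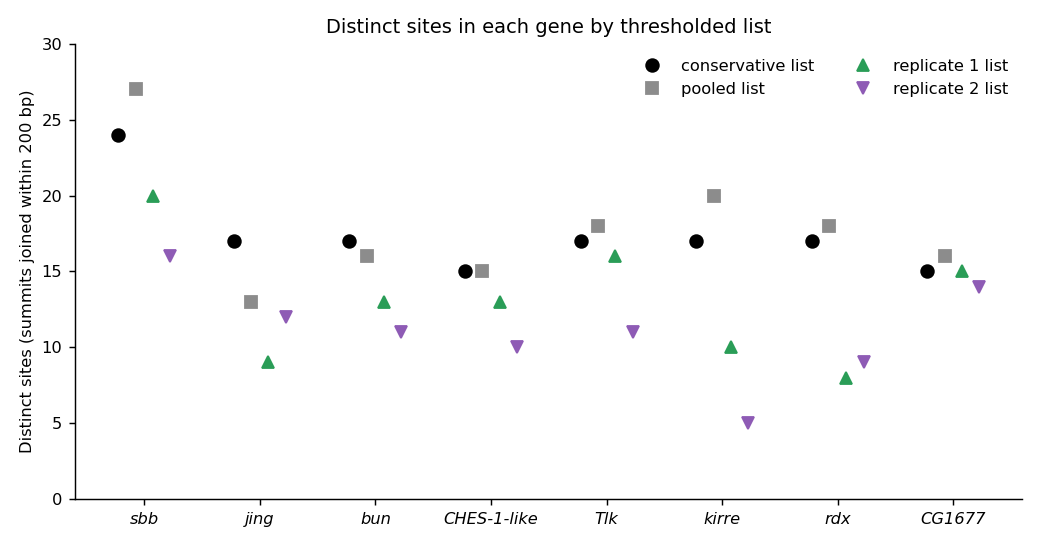
Distinct sites in each gene by thresholded list. The vertical axis counts sites after joining summits within 200 bp, and symbols mark the conservative, pooled, replicate 1 and replicate 2 lists. CG1677 has from 14 to 16 sites in every list, while kirre has from 5 to 20.

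Of the 139 conservative sites, 69 (49.6%) had their summit inside a thresholded peak of both replicates, against 49.3% of all sites, so the share was near the background. In neither replicate were 40 (28.8%), against 25.5% of all sites. Sites in both replicates had a median signal of 207.4 and the other 70 had 75.53. The strongest site of each gene was in both. A ranked call within 200 bp was present in both replicates for 137 sites, with median signals of 58.74 in replicate 1 and 50.92 in replicate 2 over the sites that had one. Replicate 1 was higher at 82 of the 137, with ratios from 0.490 to 2.71 and a median of 1.18, against 1.16 over all sites. The ratio had a median of 1.44 in bun and 0.854 in kirre, and the scales of the replicates were set by the authors.

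**Figure D5:**
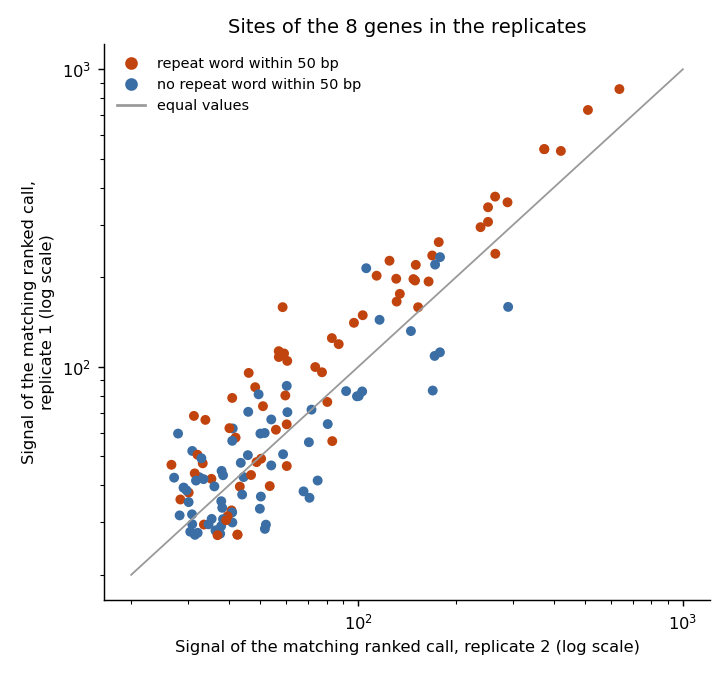
Signal of the strongest ranked call within 200 bp of each site, with replicate 2 on the horizontal and replicate 1 on the vertical axis, both on log scales. Each point is 1 of 137 sites, coloured by the repeat word, and the line marks equal values. Above the line lie 82 of the 137 sites, among them the strongest site of each gene except that of kirre.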

How the data were processed

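Peak lists on dm6 were deposited for each replicate and, as a conservative and another list (called pooled here), from both, per the file headers, which name a control and 1 further input of unstated content. Aligner, caller and depth: not given in the sources used here. Per peak, the authors deposited a signal value whose scale is not stated, and, in ranked lists, −log10 of the global IDR. It was at least 2 for every thresholded peak. Summits were column 2 plus column 10, given 1-based. Genes, transcript starts and exons came from Ensembl release 115, and sequence from the RefSeq release 6 genome, whose arms contain all calls. Summits within 200 bp were joined, and the highest stood for the site. A replicate value is the highest ranked call within 200 bp. Shares carry exact binomial 95% intervals, for counting error only. No test was made, since there is 1 group. Functions were tested on simulated data. Members and lists were chosen with earlier results of these data known. Named were each member's 3 strongest sites, the 3 genes next in the ranking and genes that contain a described site. The other genes as high in the ranking, genes with the nearest start, and other sites and groups of sites were chosen after their values were seen. Alternatives changed joining distance, window, list, IDR and replicate. Python 3.11.15, numpy 2.4.6, pandas 2.3.3, scipy 1.17.1 and matplotlib 3.10.9 were used.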

Additional observations from a re-analysis of the deposited data

How the results depend on the processing

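The 139 distinct sites became 143 when joined within 100 bp, 129 within 500 bp and 143 in the pooled list. At an IDR of at most 0.001 there were 73, and in single replicate lists 88 to 104. The median per gene, 17, was 9 at the stricter IDR and 11 to 13 in single replicates. Sites per 10 kb had a median of 2.15, which was 1.16 at the stricter IDR and 1.30 to 1.33 in single replicates. By gene, the stricter IDR left 4 sites in kirre and 5 in jing, but 12 in Tlk and CG1677. After seeing the data, 2 alternatives were added: without the transcript that adds most length to each gene 108 sites were left, and counting pairs that share both replicate calls once left 135.

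The share of sites with CAACAAC was 31.7% within 25 bp of the summit and 61.6% at the stricter IDR. The share at starts was 20.9% within 1000 bp, 0.719% with only the 5′ end of each gene and 8.65% to 13.6% in single replicates. Median signal was 111.4 with joining within 500 bp and 74.41 to 79.70 in single replicates, on their own scales. Median spacing was 2163 bp with joining within 100 bp and in the pooled list, 2355 bp with joining within 500 bp, 2802 bp at the stricter IDR and 2344 to 2349 bp in single replicates. The share of CAACAAC runs with a site was 23.3% within 100 bp, 10.7% within 25 bp, 11.1% at the stricter IDR and 12.2% to 13.8% in single replicates. The cause of these moves was not tested. The share of sites in both replicates was 42.4% with a reciprocal overlap of at least 0.5 and 51.1% with summits within 200 bp. Read depth is unknown, so what it limits cannot be given.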

Other observations

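Of 43 runs of CAACAAC of at least 13 bp in the 8 genes, 18 had no conservative summit within 50 bp. A summit was that near at 4 of 15 such runs in kirre and at 2 of 6 in sbb. It was that near at 4 of 4 in bun, 3 of 3 in CHES-1-like, 1 of 1 in jing, 6 of 7 in Tlk, 2 of 3 in rdx and 3 of 4 in CG1677. A summit farther away does not put a run outside a peak: 6 of the 18 lay inside a conservative peak, with 3 in sbb and 1 each in kirre, Tlk and rdx. Of the other 12, 10 were in kirre and 1 each in sbb and CG1677. Of the 18, 15 also had no ranked call with a summit that near. The conservative ranked list has 126636 calls before any threshold. No share of all runs inside its peaks is given, so lying inside one is not read as binding. Outside every peak of that list lay 4 of the 18, of which 3 were in kirre and 1 in CG1677. One of these was a run of 28 bp in a 5′ UTR of kirre (X, 3100192 to 3100219).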
